A study of Mus musculus with 18 samples.

Results

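The 33 genes described here make up the cell's routes to cholesterol and to fatty acids, with the proteins that switch both routes on. They were listed by name: 18 sterol genes, 10 fatty acid genes and 5 shared regulators. All 33 had a probe on the array and passed the filter on dim probes, out of 17928 genes tested. Their RNA was measured on Agilent arrays with a single dye, 1 array for each thyroid, in C57BL/6 mice that were 1 month old. Thyroids came from 4 Glis3KO2 (KO2) and 4 wild-type (WT) mice given a low-iodine diet for 6 days, and from 5 KO2 and 5 WT mice on a normal NIH31 diet, with weaning onto either diet at 3 weeks. Glis3 encodes a zinc finger transcription factor that thyroid follicular cells need to express iodide handling genes. The part of Glis3 that is deleted, the tissues in which it is deleted and the sex of the mice are not given in the sources used here. The comparison of KO2 with WT on each diet asks which of these genes change with the loss of Glis3, with plentiful and with scarce iodine.

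Cholesterol is built from acetyl-CoA through mevalonate, the isoprenoid diphosphates, squalene and lanosterol, and fatty acids are built from the same acetyl-CoA through malonyl-CoA. Both routes are switched on by the sterol regulatory element binding proteins (SREBPs), which are held in the endoplasmic reticulum by Scap and the Insig proteins while sterols are plentiful. When sterols run short, Scap carries the SREBPs to the Golgi, where proteases free the part that enters the nucleus. The product of Srebf2 acts mainly on sterol genes and the main product of Srebf1 mainly on fatty acid genes. Liver X receptors (LXRs), which sense oxysterols, act on cholesterol export genes and on Srebf1. In the thyroid, thyrotropin drives follicular cells to make hormone and, when iodine is scarce, to divide, and dividing cells need new membrane lipid.

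SREBPs bind the sterol regulatory element next to sites for the factor NF-Y, so promoters are shown for Hmgcs1, for 3 sterol genes that were lower in KO2 (Mvk, Idi1 and Sc5d) and for Fads2, the 1 gene of the fatty acid arm that passed a test. Of the 33 members, 26 were in the RefSeq promoter table of build GRCm38.p6, with 35 promoters of 250 bases before and 50 bases after a start site. Each line gives the 250 bases before the start site, 5′ to 3′ on the gene's strand, and the capitals mark letters that match the sterol regulatory element core or the NF-Y box on either strand.
Hmgcs1, chr13:119690101-119690350, + strand: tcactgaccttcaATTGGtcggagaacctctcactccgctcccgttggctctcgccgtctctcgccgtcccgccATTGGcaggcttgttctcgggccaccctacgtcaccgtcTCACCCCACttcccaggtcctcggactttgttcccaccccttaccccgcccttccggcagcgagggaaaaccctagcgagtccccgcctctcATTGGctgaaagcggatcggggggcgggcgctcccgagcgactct
Mvk, chr5:114444019-114444268, + strand: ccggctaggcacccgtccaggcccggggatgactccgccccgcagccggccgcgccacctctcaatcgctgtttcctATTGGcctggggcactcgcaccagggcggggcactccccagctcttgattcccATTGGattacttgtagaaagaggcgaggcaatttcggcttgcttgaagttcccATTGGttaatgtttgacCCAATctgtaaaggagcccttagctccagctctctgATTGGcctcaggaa
Idi1, chr13:8885356-8885605, + strand: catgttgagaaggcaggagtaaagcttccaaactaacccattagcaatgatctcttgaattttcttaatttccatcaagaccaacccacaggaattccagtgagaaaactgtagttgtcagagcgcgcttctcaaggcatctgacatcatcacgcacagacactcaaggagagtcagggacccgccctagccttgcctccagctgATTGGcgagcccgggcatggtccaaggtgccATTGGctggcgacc
Sc5d, chr9:42264301-42264550, - strand: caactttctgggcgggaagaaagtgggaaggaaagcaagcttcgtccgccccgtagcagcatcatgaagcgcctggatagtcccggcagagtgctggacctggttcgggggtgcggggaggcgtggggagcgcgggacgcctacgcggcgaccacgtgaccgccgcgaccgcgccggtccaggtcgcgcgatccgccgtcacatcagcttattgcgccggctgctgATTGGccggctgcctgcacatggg
Fads2, chr19:10101504-10101753, - strand: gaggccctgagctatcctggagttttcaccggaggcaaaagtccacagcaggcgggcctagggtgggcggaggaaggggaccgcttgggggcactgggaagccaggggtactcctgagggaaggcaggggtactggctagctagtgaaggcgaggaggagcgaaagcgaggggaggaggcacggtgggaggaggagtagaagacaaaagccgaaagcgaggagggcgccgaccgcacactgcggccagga
The core searched was TCACNCCAC and the NF-Y box was CCAAT, on both strands, and neither can lie wholly inside the other. The core was found in 1 of 17 sterol promoters, that of Hmgcs1 at −137 to −129, against 1.24% of all 32851 promoters of the same length in the table, and in 0 of 8 fatty acid promoters. The NF-Y box was found in 13 of 17 sterol promoters (76.5%) and 4 of 8 fatty acid promoters (50.0%), against 37.4% of all promoters. Hmgcs1 held 4 NF-Y boxes, of which 3 lie before the start site, Mvk held 5, Idi1 held 2, Sc5d held 1 and Fads2 held 0. The E-box CACGTG, which SREBPs can also bind, was found in 3 of 17 sterol promoters (17.6%) and 1 of 8 fatty acid promoters (12.5%), against 7.15% of all. A match is a description of the letters in the window and shows no binding.

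Across arrays, 60.1% to 90.6% of the spots stood well above background, and precision is limited by how many arrays a group has. Levels are given as log2 of the processed signal minus the array's 75th percentile, so that 0 is the brightness of that percentile and a difference of 1 is 2-fold. Of 10 thyroid follicular markers, 9 were measured and all 9 were well above background on every array. Arrays differed in neighbouring tissue: the mean level of 10 skeletal muscle genes ran from −4.57 to 5.68 over the arrays. Glis3 was read by 1 probe, which on the low-iodine diet ran from −4.06 to −1.49 in KO2 thyroids, against −1.60 to −0.74 in WT thyroids (difference −1.36 ± 0.47 SE, adjusted p = 0.0619). On the normal diet it ran from −5.46 to −4.16 in KO2 thyroids, against −6.08 to −4.79 in WT thyroids (difference 0.45 ± 0.42 SE, adjusted p = 0.732). Without the deleted part being stated, this probe does not check the labels. The low-iodine arrays lie on other slides and were scanned on another scanner than the normal-diet arrays, so the diet cannot be told apart from the set of arrays.

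On the low-iodine diet 9 of 18 sterol genes were lower in KO2 thyroids, from the mevalonate kinase near the start of the route to the reductase that completes cholesterol, and the regulators Srebf1 and Scap were higher. With limma and Benjamini-Hochberg adjustment over all genes tested, 11 of 33 members passed the adjusted p threshold of 0.05, against 15.0% of all genes. Those 9 sterol genes stand against 7.18% of all genes that were lower, and 0 sterol genes were higher. Of the 10 fatty acid genes 0 passed, and 2 had an unadjusted p under 0.05, against 5051 of all 17928 genes. Of the 5 regulators 2 passed, both higher in KO2, against 7.81% of all genes. The median difference was −0.47 over the sterol arm, −0.16 over the fatty acid arm and 0.49 over the regulators, beside −0.024 over all genes. In whole thyroids, fewer cells of a type and less RNA per cell cannot be told apart.

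Mvk, the kinase that phosphorylates mevalonate, had log2 levels of −3.86, −3.31, −2.92 and −4.03 in the 4 KO2 thyroids, against −2.78, −1.68, −2.84 and −2.28 in the 4 WT thyroids. Every KO2 array lay below every WT array. Mvk was 2.2-fold lower in KO2, a difference of −1.14 ± 0.27 (SE, adjusted p = 0.00859). Idi1, the isomerase that makes the reactive isoprene unit, had 3.20, 2.59, 3.25 and 3.17 in KO2 thyroids, against 4.01, 3.55, 3.83 and 4.29 in WT thyroids. The genotypes did not overlap, and KO2 replicate 2 stood below the other KO2 arrays. Its difference was −0.87 ± 0.26 (SE, adjusted p = 0.033). Fdps, which joins isoprene units into farnesyl diphosphate for sterols and for protein prenylation, had −2.93, −2.28, −1.32 and −2.04 in KO2 thyroids, against −0.58, −0.60, −1.03 and −0.71 in WT thyroids. All KO2 arrays were lower than all WT arrays, and the fold was 2.66 (difference −1.41 ± 0.31 SE, adjusted p = 0.00565). Fdps has near-identical copies in the mouse genome, so its probe may read more than 1 locus.

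Sqle, squalene epoxidase, catalyses the first oxygen-dependent step of sterol synthesis and controls flux through it. It had −0.32, −0.50, −0.10 and −0.72 in KO2 thyroids, against 0.49, 0.0099, 0.34 and 0.65 in WT thyroids. The KO2 arrays were all below the WT arrays, with a difference of −0.78 ± 0.20 (SE, adjusted p = 0.0142). Past lanosterol, Tm7sf2, a sterol reductase, had −1.53, −1.88, −1.04 and −1.17 in KO2 thyroids, against −0.78, −0.93, −0.998 and −0.51 in WT thyroids. Again the genotypes did not overlap, with a difference of −0.60 ± 0.18 (SE, adjusted p = 0.0372). Nsdhl, which helps to strip methyl groups from the sterol ring, had −0.95, −1.09, −0.80 and −0.44 in KO2 thyroids, against −0.38, −0.49, −0.41 and 0.089 in WT thyroids. Here the genotypes overlapped, and the difference of −0.52 ± 0.16 (SE, adjusted p = 0.0398) was the smallest of the 9 sterol genes that passed.

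Sc5d, the sterol desaturase of the late pathway, had 0.094, −0.15, 0.29 and −0.09 in KO2 thyroids, against 0.84, 0.82, 0.996 and 1.41 in WT thyroids. No KO2 array reached the lowest WT array. Sc5d was 1.97-fold lower in KO2 (difference −0.98 ± 0.19 SE, adjusted p = 0.00242). Dhcr7, the reductase that makes cholesterol in the last step, had −2.36, −1.49, −1.24 and −1.56 in KO2 thyroids, against −0.21, −0.65, −0.38 and −0.42 in WT thyroids. The groups were apart, with Dhcr7 2.38-fold lower in KO2 (difference −1.25 ± 0.25 SE, adjusted p = 0.00355). Stard4, a cytosolic carrier that moves cholesterol between membranes, had −4.09, −3.67, −4.25 and −4.90 in KO2 thyroids, against −2.37, −3.10, −2.65 and −2.61 in WT thyroids. The Stard4 spot exceeded background clearly on 3 of these 4 KO2 arrays and on all arrays of the other groups. All KO2 arrays were below the WT arrays, and the fold of 2.92 was the largest of the sterol arm (difference −1.55 ± 0.29 SE, adjusted p = 0.00206).

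The other 9 sterol genes did not pass. Hmgcs1, the HMG-CoA synthase whose promoter holds the sterol element, ranged from 2.18 to 2.81 in KO2 thyroids and from 2.57 to 3.24 in WT thyroids (difference −0.38 ± 0.22 SE, adjusted p = 0.297, 95% interval −0.85 to 0.09). Pmvk, phosphomevalonate kinase, differed by −0.41 ± 0.30 (SE, adjusted p = 0.428), and Cyp51, the lanosterol demethylase, by −0.38 ± 0.23 (SE, adjusted p = 0.33). Pmvk was the only member outside the 11 that passed whose KO2 and WT arrays did not overlap in this comparison; Nsdhl, which passed, did overlap. Non-overlap held for 11 of 33 members, 9 of them in the sterol arm and 2 among the regulators, against 19.7% of all genes. Lanosterol synthase Lss and the dehydrogenase Hsd17b7 had small negative differences of −0.15 ± 0.25 and −0.26 ± 0.27 (SE). Differences were positive and not called for Acat2, the thiolase that starts the route (0.25 ± 0.16 SE), and for squalene synthase Fdft1 (0.38 ± 0.28 SE). Mevalonate diphosphate decarboxylase Mvd and the sterol isomerase Ebp were near 0, at 0.017 and 0.025.

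**Figure D1:**
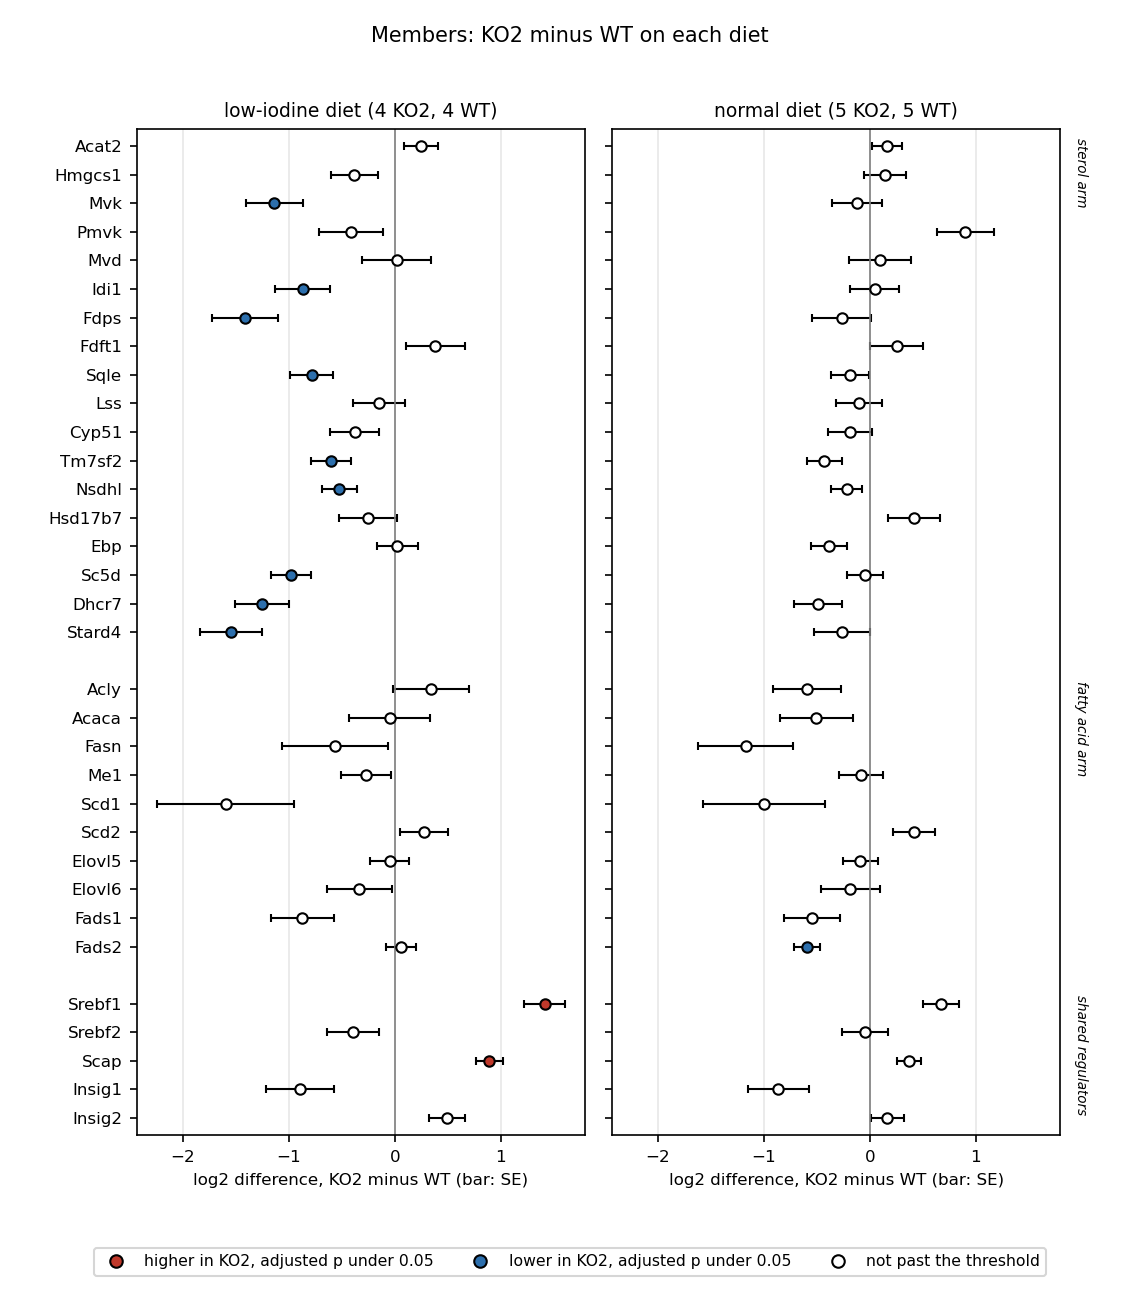
KO2 minus WT difference in log2 level for each of the 33 genes, low-iodine diet in the left panel and normal diet in the right panel, with bars for the SE of the fit and filled points for genes past the adjusted p threshold of 0.05. On the low-iodine diet 9 filled points of the sterol arm lie left of 0 and the filled points of Srebf1 and Scap lie right of it, while on the normal diet 1 point, Fads2, is filled.

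Among the regulators, Srebf1, which encodes the SREBP that acts mainly on fatty acid genes, had 3.13, 2.88, 2.79 and 2.86 in KO2 thyroids, against 1.54, 1.17, 1.60 and 1.69 in WT thyroids. Each KO2 array was above each WT array. Srebf1 was 2.66-fold higher in KO2 (difference 1.41 ± 0.19 SE, adjusted p = 0.000131), the smallest adjusted p among the 33 genes. Scap, the escort that carries the SREBPs to the Golgi, had 1.55, 1.54, 1.49 and 1.32 in KO2 thyroids, against 0.59, 0.45, 0.57 and 0.72 in WT thyroids. The genotypes were again apart, with a difference of 0.89 ± 0.12 (SE, adjusted p = 0.000178). Srebf2, whose product acts mainly on sterol genes, differed by −0.39 ± 0.24 (SE, adjusted p = 0.333) and was not called. Insig1, the retention protein that is itself an SREBP target, ranged from −1.05 to −0.016 in KO2 thyroids and from −0.23 to 0.74 in WT thyroids (difference −0.89 ± 0.32 SE, adjusted p = 0.0731). Insig2, the retention protein that is not induced by the SREBPs, differed by 0.49 ± 0.17 (SE, adjusted p = 0.0632). Neither Insig gene passed the threshold, and their differences had opposite signs.

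The fatty acid arm gave no call on the low-iodine diet. Acly, which makes cytosolic acetyl-CoA from citrate, differed by 0.35 ± 0.36 (SE) and Acaca, acetyl-CoA carboxylase, by −0.049 ± 0.38 (SE). Fasn, fatty acid synthase, ranged from 2.09 to 2.98 in KO2 thyroids and from 2.11 to 3.77 in WT thyroids, a difference of −0.56 ± 0.50 (SE, adjusted p = 0.537) with a 95% interval of −1.62 to 0.50. Me1, the malic enzyme that supplies NADPH, differed by −0.27 ± 0.23 (SE). The stearoyl-CoA desaturase Scd1 had 2.77, 2.91, 4.24 and 2.78 in KO2 thyroids, against 4.93, 3.78, 5.04 and 5.33 in WT thyroids. KO2 replicate 3 lay far above the other KO2 arrays and within the WT values, and the difference of −1.60 ± 0.65 (SE, adjusted p = 0.111) did not pass. Scd2, its close paralog, differed by 0.27 ± 0.23 (SE), and since the 2 sequences are alike each probe may read some of the other's RNA. The elongases Elovl5 and Elovl6 differed by −0.049 ± 0.19 and −0.33 ± 0.31 (SE). Of the desaturases that make polyunsaturated fatty acids, Fads1 differed by −0.87 ± 0.29 (SE, adjusted p = 0.0576) and Fads2 by 0.058 ± 0.14 (SE, adjusted p = 0.835). Fads1 passed without any 1 of 3 arrays (adjusted p = 0.0381 to 0.0457, lower in KO2), and Scd1 passed without KO2 replicate 1 of the normal diet, which enters only the shared spread (adjusted p = 0.0299).

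Averaged over its 18 genes, the sterol arm ranged from −0.35 to −0.0084 in KO2 thyroids, against 0.20 to 0.46 in WT thyroids, with no overlap. The mean over the 10 fatty acid genes was 1.99 ± 0.088 in KO2 thyroids and 2.30 ± 0.25 in WT thyroids (SD, n = 4 each), with overlapping arrays. The sterol mean minus the fatty acid mean of the same array ranged from −2.39 to −2.06 in KO2 thyroids and from −2.13 to −1.67 in WT thyroids. These overlapped, so the arrays do not separate the genotypes by how far one arm moved against the other. On the normal diet the sterol mean minus the fatty acid mean ranged from −2.66 to −1.43 in KO2 thyroids and from −2.52 to −1.89 in WT thyroids, also overlapping.

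**Figure D2:**
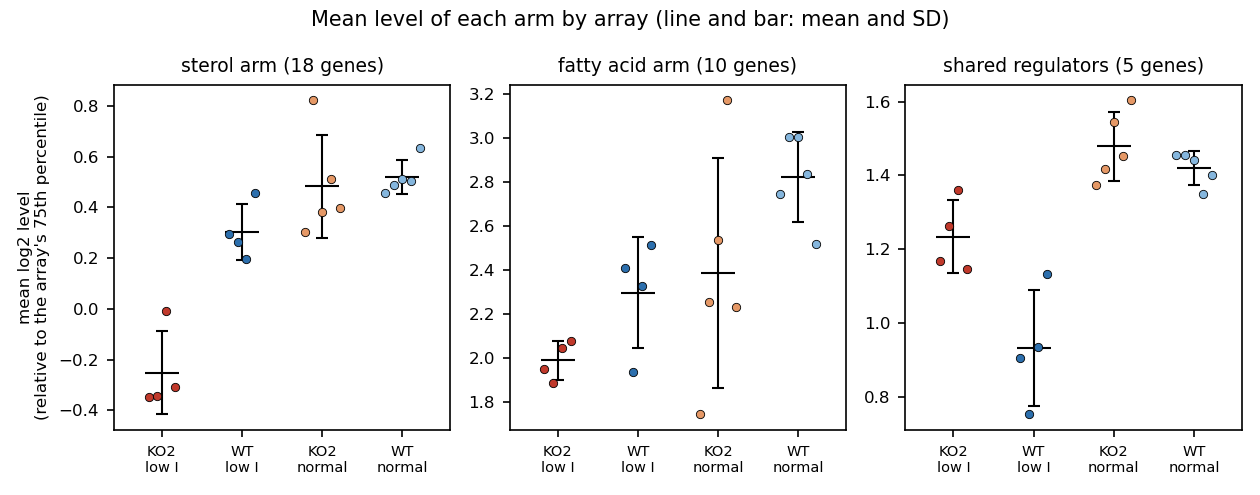
Mean log2 level per array (0 is the 75th percentile of the array) of the sterol arm, the fatty acid arm and the regulators in the 4 groups, with 1 point per array and the mean and SD as line and bar. The sterol means of the low-iodine KO2 arrays (−0.35 to −0.0084) all lie below those of the low-iodine WT arrays (0.20 to 0.46), while the fatty acid means of the 2 genotypes overlap on each diet.

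The low-iodine differences were seen on both slides. The median over the sterol arm was −0.49 on slide 4 and −0.61 on slide 5, with 15 of 18 genes negative on each, where each slide holds 2 KO2 and 2 WT arrays. The 9 sterol genes that passed ran from −1.90 (Fdps) to −0.26 (Nsdhl) on slide 4 and from −1.33 (Stard4) to −0.56 (Mvk) on slide 5. Srebf1 differed by 1.64 and 1.19 on the 2 slides and Scap by 0.92 and 0.87. The fatty acid median was 0.034 on slide 4 and −0.35 on slide 5. The calls of 3 sterol genes depended on single arrays. Idi1 lost its call without any 1 of WT replicates 1, 3 or 4 or KO2 replicates 1, 2 or 4 (adjusted p 0.0513 to 0.0977). Tm7sf2 lost it without WT replicate 1 or 4 or KO2 replicate 1 or 2 (0.0712 to 0.111). Nsdhl lost it without WT replicate 1, 3 or 4, KO2 replicate 1, 2 or 3, or normal-diet WT replicate 3 or 4 (0.051 to 0.127). The other 8 calls held without each single array. With each array centred on its median in place of its 75th percentile, which moved the median difference over all genes to 0.126, 6 of 33 members passed: Mvk, Fdps, Dhcr7 and Stard4 lower and Srebf1 and Scap higher. Without any scaling, where 86.5% of all calls were lower in KO2 against 47.9% with scaling, 12 members passed, 10 of them sterol genes that were lower.

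Where a gene had several probes, the brightest stood for it above, and 17 members had more than 1. Among all 55 probes of the members, 17 were lower in KO2 on the low-iodine diet and 3 were higher, in a fit over 26518 probes that called 3563 (13.4%, with 7.11% lower and 6.32% higher). A second probe was lower in KO2 for Idi1 (−1.49 ± 0.33 SE, adjusted p = 0.0062) and Dhcr7 (−2.85 ± 0.60 SE, adjusted p = 0.00479), and another for Nsdhl (−0.78 ± 0.22 SE, adjusted p = 0.0238). Other probes of called sterol genes were negative but did not pass. These were the second probe of Mvk (−1.10 ± 0.40 SE, adjusted p = 0.0776), 1 further probe of Nsdhl (−0.84 ± 0.35 SE, adjusted p = 0.134) and both dimmer probes of Stard4, at −1.22 ± 0.41 (SE, adjusted p = 0.0621) and −1.37 ± 0.45 (SE, adjusted p = 0.0555). For 4 genes without a call, at least 1 dimmer probe was lower. Cyp51 had 2 such probes, at −1.50 ± 0.33 (SE, adjusted p = 0.00634) and −1.12 ± 0.31 (SE, adjusted p = 0.0237), Insig1 had 1, at −1.67 ± 0.36 (SE, adjusted p = 0.00579), and Elovl5 of the fatty acid arm had 1, at −0.57 ± 0.18 (SE, adjusted p = 0.04). The fourth was Acaca. Its 4 probes disagreed: the chosen probe stood at −0.049 ± 0.38 (SE, adjusted p = 0.957), and the others at 0.93 ± 0.29 (SE, adjusted p = 0.042), 0.16 ± 0.37 (SE, adjusted p = 0.829) and −1.09 ± 0.35 (SE, adjusted p = 0.0492). Of the 17 genes, 2 had probes that differed in sign and 7 had probes that differed in call, so the count of 9 sterol genes depends on which probe stands for a gene.

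**Figure D3:**
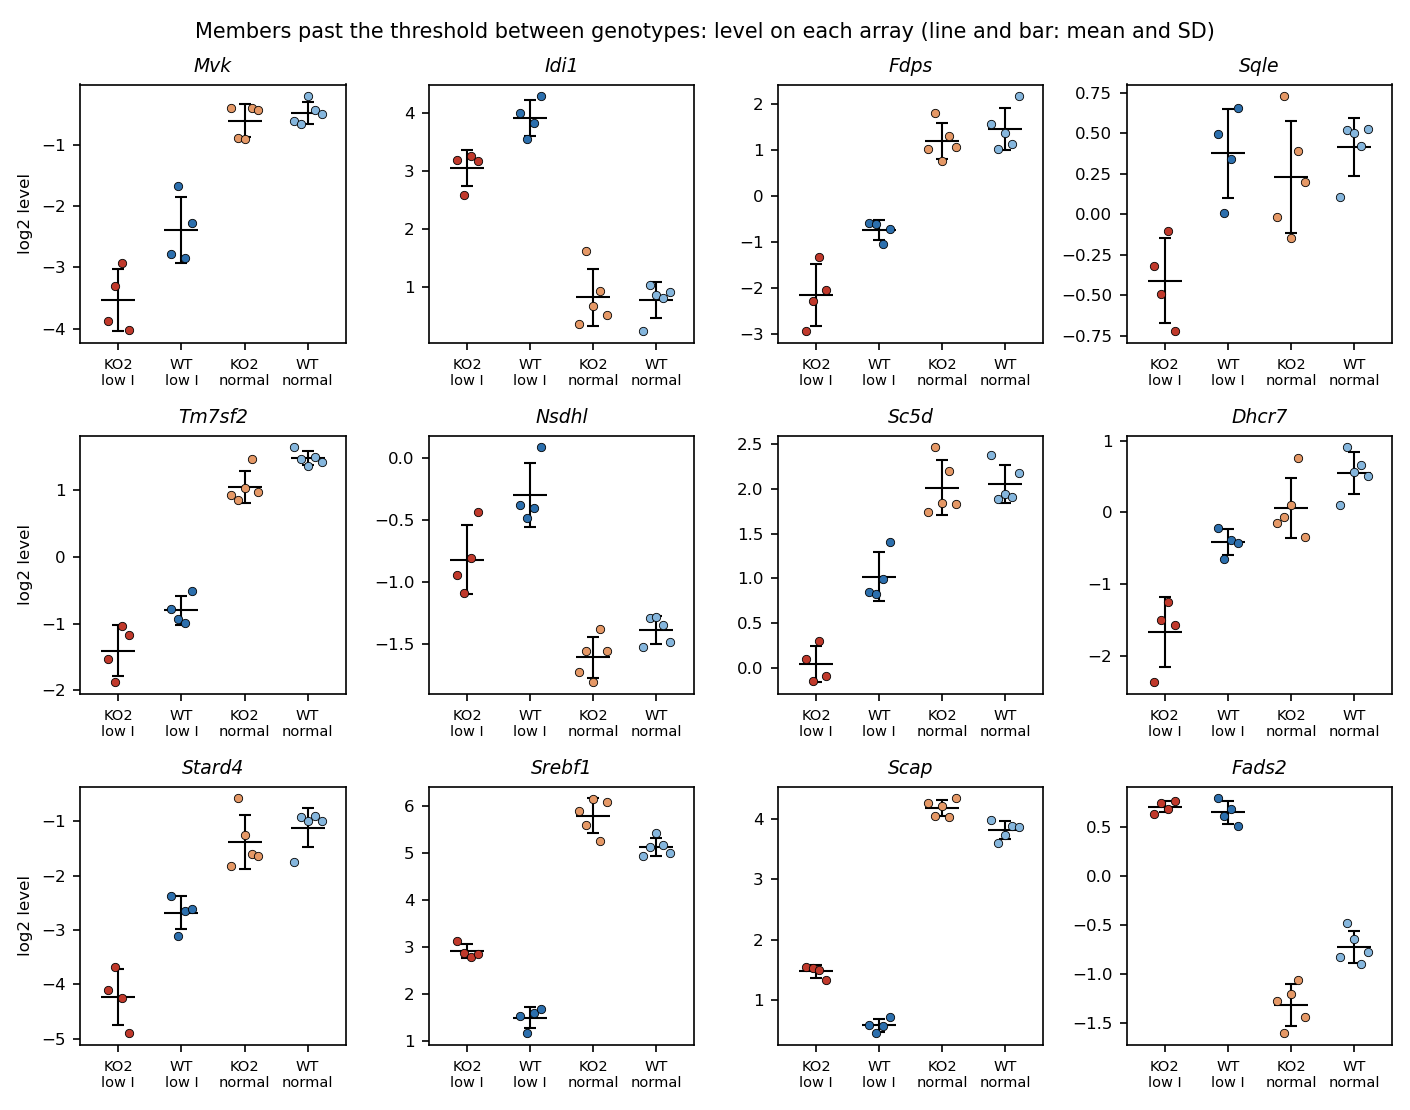
Log2 level on each array, with the 75th percentile of that array at 0, for the members that passed the threshold in a genotype comparison, with the 4 groups side by side and the mean and SD as line and bar. In the low-iodine groups the KO2 points of 8 sterol genes lie below all WT points, those of Srebf1 and Scap lie above them and those of Nsdhl overlap, and in the normal-diet groups the KO2 points of Fads2 lie below the WT points.

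On the normal diet 1 of 33 members passed, against 1.39% of all genes. That gene was Fads2, the desaturase that begins the synthesis of long polyunsaturated fatty acids. It was lower in KO2, as were 0.876% of all genes, and 0 members were higher, against 0.513% of all genes. Fads2 had −1.27, −1.61, −1.21, −1.06 and −1.44 in the 5 KO2 thyroids, against −0.82, −0.48, −0.65, −0.90 and −0.78 in the 5 WT thyroids. All KO2 arrays lay below all WT arrays, and Fads2 was 1.51-fold lower in KO2 (difference −0.59 ± 0.12 SE, adjusted p = 0.0219). The median difference was −0.53 over the fatty acid arm, with 9 of 10 genes negative, −0.11 over the sterol arm, with 11 of 18 negative, and 0.17 over the regulators, beside 0.047 over all genes. An unadjusted p under 0.05 was reached by 9 members, against 13.2% of all genes. Groups did not overlap for 2 members, Fads2 and Scap, against 3.52% of all genes.

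The Fads2 call was lost without WT replicate 2 or 3 or KO2 replicate 2 or 5 (adjusted p 0.0551 to 0.0675). Fasn had 5.08, 6.10, 6.26, 8.01 and 5.40 in KO2 thyroids, against 7.14, 7.87, 7.52, 7.44 and 6.74 in WT thyroids. KO2 replicate 4 stood above every WT array and the other 4 KO2 arrays below every WT array, and the difference of −1.17 ± 0.45 (SE, adjusted p = 0.25) did not pass. Insig1 had −4.26, −3.73, −3.79, −2.65 and −4.20 in KO2 thyroids, against −2.81, −2.46, −2.98, −2.92 and −3.14 in WT thyroids. Again KO2 replicate 4 alone lay within the WT range (difference −0.86 ± 0.29 SE, adjusted p = 0.173). Srebf1 had 5.90, 5.61, 6.17, 5.27 and 6.08 in KO2 thyroids, against 4.95, 5.13, 5.42, 5.18 and 5.00 in WT thyroids. All KO2 arrays but replicate 4 were above the WT arrays, with a difference of 0.67 ± 0.17 (SE, adjusted p = 0.0645). Scap had 4.26, 4.04, 4.20, 4.03 and 4.34 in KO2 thyroids, against 3.97, 3.59, 3.73, 3.87 and 3.87 in WT thyroids. These did not overlap, though the difference of 0.37 ± 0.11 (SE, adjusted p = 0.125) stayed above the threshold. Pmvk had 3.17, 4.66, 3.49, 3.40 and 4.17 in KO2 thyroids, against 2.07, 3.24, 3.38, 2.96 and 2.75 in WT thyroids, a positive difference of 0.90 ± 0.27 (SE, adjusted p = 0.118) with overlapping arrays.

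The remaining members did not pass on the normal diet. Among the fatty acid genes, Scd1 differed by −0.997 ± 0.58, Acly by −0.59 ± 0.32, Fads1 by −0.55 ± 0.26 and Acaca by −0.50 ± 0.34 (SE). Scd2 was the one fatty acid gene with a positive difference (0.42 ± 0.20 SE), and Me1, Elovl5 and Elovl6 lay between −0.18 and −0.082. Of the 9 sterol genes that were lower in KO2 on low iodine, the normal-diet differences ran from −0.49 (Dhcr7, adjusted p = 0.366) to 0.047 (Idi1, adjusted p = 0.964). Within slides 1, 2 and 3 the fatty acid median was −0.55, −0.12 and −0.52, and the sterol median was 0.094, −0.12 and −0.26. Slide 1 holds only 1 KO2 and 1 WT array, and slides 2 and 3 hold 2 of each.

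On the normal diet 1 KO2 array stood apart in the fatty acid arm. KO2 replicate 4 had a mean fatty acid arm level of 3.17, against 1.75 to 2.54 on the other KO2 arrays, and the highest adipocyte marker mean of its group (3.39, others 1.55 to 3.13). Without it, 5 of 33 members passed. Fasn (−1.63, adjusted p = 0.0133), Acly (−0.92, adjusted p = 0.0461), Fads2 (−0.66, adjusted p = 0.00729) and Insig1 (−1.13, adjusted p = 0.0134) were lower in KO2, and Srebf1 (0.80, adjusted p = 0.00804) was higher. Over all genes 675 passed without this array, against 249 with it. Of the 18 arrays, KO2 replicate 4 also had the lowest share of spots well above background (60.1%) and the lowest median signal (44.9). Its skeletal muscle mean of 5.68 was the highest of all arrays. Its proliferation mean was −2.19, against −4.45 to −3.71 on the other normal-diet KO2 arrays. The part of adipose tissue, of muscle or of signal quality in the levels of this array was not tested.

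The genotype by diet interaction asks whether the KO2 difference on low iodine departed from that on the normal diet, which separate calls on the 2 diets do not show. It passed for 0 of 33 members in limma, against 1.22% of all genes, and 11 members had an unadjusted p under 0.05, against 14.3% of all genes. The sterol arm's median interaction was −0.56, with 15 of 18 genes negative and 8 under that unadjusted p, and the fatty acid arm's was −0.051. Sc5d came nearest at −0.94 ± 0.25 (SE, adjusted p = 0.0869), followed by Fads2 at 0.65 ± 0.18 (SE, adjusted p = 0.0968). Stard4 (−1.28 ± 0.39 SE), Pmvk (−1.31 ± 0.40 SE), Scap (0.53 ± 0.17 SE) and Srebf1 (0.75 ± 0.25 SE) had adjusted p values of 0.128, 0.129, 0.144 and 0.181. Sc5d passed with quantile normalization (−1.07, adjusted p = 0.0206) and with slide as a fixed block (adjusted p = 0.0491). A lower sterol arm in KO2 on low iodine alone was therefore not shown for any single gene in the fit used here. Since each diet lies on its own slides and scanner, an interaction with diet cannot be told apart from one with the set of arrays.

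Of 10 other genes of sterol synthesis, uptake and storage, 3 were lower in KO2 on the low-iodine diet, against 7.18% of all genes. In that list 0 were higher, against 7.81% of all genes, and the median was −0.32. Among the 3 lower genes was Tmem97, a sterol-regulated membrane protein that binds Npc1. It had −2.80, −2.32, −1.64 and −2.33 in KO2 thyroids, against −1.07, −1.27, −0.63 and −0.88 in WT thyroids. The genotypes did not overlap, and Tmem97 was 2.48-fold lower in KO2 (difference −1.31 ± 0.26 SE, adjusted p = 0.00277). The sterol synthesis enzymes Msmo1 and Lbr, the lysosomal cholesterol exporters Npc1 and Npc2, Soat1, which esterifies cholesterol for storage, and Lipa, the lysosomal lipase, did not pass, with differences from −0.37 to 0.39.

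Some genes of cholesterol export were higher in KO2. Of 9 genes of sterol efflux and LXR action, 3 were higher in KO2 on low iodine, against 7.81% of all genes. In that list 1 was lower, against 7.18% of all genes, and the median was 0.64. Abca1, the pump that loads cholesterol onto apolipoprotein A-I, had 3.73, 3.48, 2.34 and 3.47 in KO2 thyroids, against 1.86, 1.15, 1.57 and 1.56 in WT thyroids, with no overlap (difference 1.72 ± 0.36 SE, adjusted p = 0.0041). Apoe, a lipoprotein component, ranged from 3.92 to 4.50 in KO2 thyroids and from 2.41 to 2.88 in WT thyroids (difference 1.55 ± 0.32 SE, adjusted p = 0.00369). Nr1h3, the gene of LXR-alpha, differed by 0.73 ± 0.22 (SE, adjusted p = 0.0366), a call lost without WT replicate 2 or 3 or KO2 replicate 1, 3 or 4 (adjusted p 0.0581 to 0.112). Pltp, the phospholipid transfer protein, was lower in KO2 on low iodine (−1.33 ± 0.22 SE, adjusted p = 0.000646) and on the normal diet (−1.02 ± 0.19 SE, adjusted p = 0.0124). Abcg1 and Mylip had positive differences that did not pass (0.85 ± 0.36 and 0.64 ± 0.32 SE). Over the 9 genes of efflux and LXR action, 7 differences were positive and 2 negative on low iodine. Npc2, the cholesterol carrier of the lysosome, was higher in KO2 on the normal diet (0.71 ± 0.17 SE, adjusted p = 0.0462), a call lost without any 1 of 12 arrays (adjusted p 0.055 to 0.115). It held without normal-diet KO2 replicate 2, 4 or 5 or WT replicate 1, and without low-iodine KO2 replicate 1 or WT replicate 2.

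**Figure D4:**
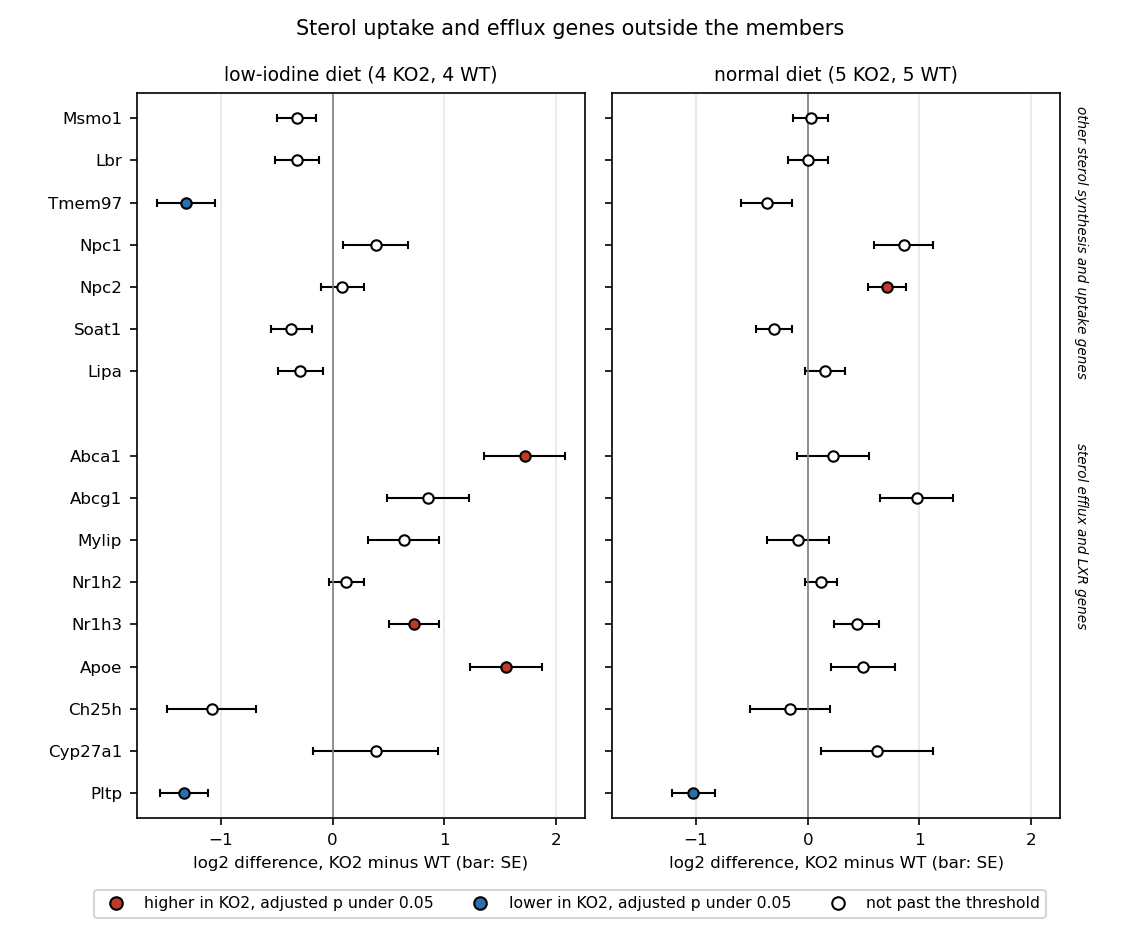
KO2 minus WT difference in log2 level for 7 of the 10 genes of sterol synthesis and uptake (upper group) and 9 genes of sterol efflux and LXR action (lower group), low-iodine diet in the left panel and normal diet in the right panel, with bars for the SE of the fit and filled points past the adjusted p threshold. On the low-iodine diet Tmem97 and Pltp are filled left of 0 and Abca1, Nr1h3 and Apoe right of it, while on the normal diet Npc2 and Pltp are filled.

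The other lipid genes gave few calls, in both directions. Of 25 other genes of fatty acid and lipid synthesis, 2 were higher and 2 lower in KO2 on low iodine (median −0.090). These counts lie near the shares of all genes, 7.81% higher and 7.18% lower, so nothing is read from them about the list. Acacb, the mitochondrial acetyl-CoA carboxylase whose malonyl-CoA restrains fat oxidation, differed by 1.45 ± 0.38 (SE, adjusted p = 0.0169) and Lpin1, a phosphatidate phosphatase, by 1.21 ± 0.33 (SE, adjusted p = 0.0195). Fads3, a relative of the other Fads desaturases, differed by −2.22 ± 0.31 (SE, adjusted p = 0.000163) and the elongase Elovl7 by −0.75 ± 0.18 (SE, adjusted p = 0.0109). The Acacb call was lost without WT replicate 3 or KO2 replicate 4 (0.0513 and 0.0554), and that of Lpin1 without WT replicate 2 or 3 or KO2 replicate 3 or 4 (0.0524 to 0.0611). Among 9 measured genes of SREBP processing and turnover, 1 was higher and 1 lower, against 7.81% and 7.18% of all genes. The ubiquitin ligase Rnf139 was higher (0.49 ± 0.13 SE, adjusted p = 0.0182) and Erlin1, which helps to retain the SREBPs, was lower (−0.57 ± 0.15 SE, adjusted p = 0.0166). Each of these calls was lost without 1 array, WT replicate 2 for Rnf139 (0.0582) and WT replicate 4 for Erlin1 (0.0501). The SREBP proteases Mbtps1 and Mbtps2 did not pass (0.12 ± 0.17 and −0.66 ± 0.63 SE). Of 13 fatty acid oxidation genes, 1 passed, against 15.0% of all genes. Cpt1b, a carnitine palmitoyltransferase, was higher (1.57 ± 0.45 SE, adjusted p = 0.0262), a call lost without WT replicate 2 or KO2 replicate 3 or 4 (0.06 to 0.0775).

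Some marker lists for cell types and for proliferation also differed between genotypes. Over all genes 7.18% were lower and 7.81% higher in KO2 on low iodine. On the normal diet 0.876% of all genes were lower and 0.513% higher. The 8 proliferation genes were all lower in KO2 on low iodine, with means of −3.89 to −3.73 in KO2 thyroids, against 0.57 to 1.07 in WT thyroids, and 7 of 8 were lower on the normal diet. Of 8 fibroblast genes, 5 were lower and 1 higher in KO2 on low iodine, with means of 0.025 to 0.89 in KO2 thyroids and 1.82 to 2.38 in WT thyroids, and on the normal diet 4 were lower, with means of 0.97 to 2.34 in KO2 thyroids and 2.65 to 3.16 in WT thyroids. Of 9 follicular genes measured, Slc5a5, the sodium/iodide symporter, and Iyd, the deiodinase that recycles iodide, were lower and the lineage factor Nkx2-1 was higher, with means of 2.75 to 3.35 in KO2 thyroids and 3.18 to 3.52 in WT thyroids. On the normal diet 2 were higher and 0 were lower, with means of 3.14 to 3.69 in KO2 thyroids and 2.67 to 3.33 in WT thyroids. The part of these differences in the sterol result was not tested. The 11 adipocyte genes measured gave 0 calls on either diet. On low iodine 3 had an unadjusted p under 0.05, against 5051 of all 17928 genes, and the list's median difference was 0.575. Adipoq, Cidec, Cfd and Pparg (4 of 11) did not overlap between genotypes there and were higher in KO2. Over all genes 19.7% did not overlap. Of the 11 adipocyte differences on low iodine, 7 were positive and 4 negative. The negative ones were Car3 (−0.74), Lep (−0.25), Lipe (−0.035) and Retn (−0.0069). The adipocyte means were 1.47 to 2.13 in KO2 thyroids and 1.08 to 1.51 in WT thyroids on low iodine. On the normal diet they were 1.55 to 3.39 in KO2 and 1.71 to 3.28 in WT thyroids. Of 10 brown adipocyte genes, Slc27a2 was higher in KO2 on low iodine and 0 were called by limma on the normal diet. There 1 had an unadjusted p under 0.05, against 13.2% of all genes. On low iodine 4 of 10 did not overlap between genotypes, against 19.7% of all genes. Of these, Cidea and Slc27a2 were higher in KO2 and Ucp1 and Dio2 were lower. The brown adipocyte means on low iodine were −1.07 to −0.49 in KO2 thyroids and −0.99 to −0.34 in WT thyroids. With the adipocyte mean as a covariate, 15 of 33 members passed on low iodine, where 16.3% of all genes did (8.15% lower and 8.15% higher), against 15.0% without it. These were the 11 members called without the covariate, with Scd1 (−2.19, adjusted p = 0.0047), Elovl6 (−0.63, adjusted p = 0.0492), Insig1 (−1.11, adjusted p = 0.0166) and Insig2 (0.54, adjusted p = 0.0488).

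**Figure D5:**
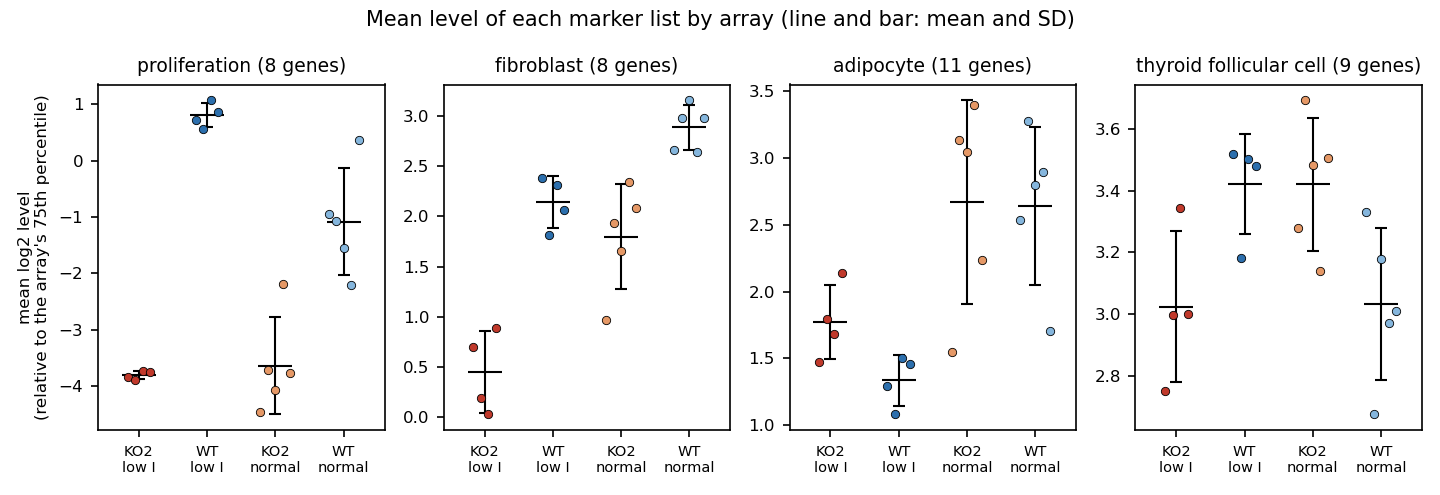
Mean log2 level per array (0 is the 75th percentile of the array) of the proliferation, fibroblast, follicular and adipocyte marker lists in the 4 groups, with 1 point per array and the mean and SD as line and bar. The proliferation means of KO2 arrays on low iodine (−3.89 to −3.73) lie below all WT means on that diet (0.57 to 1.07). The adipocyte means spread more widely on the normal diet than on low iodine.

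Between the diets, the comparison is at the same time one between 2 sets of slides and 2 scanners, so its values are given as a description. In KO2 thyroids 25 of 33 passed, against 74.4% of all genes: 8 were higher, against 37.5%, and 17 lower, against 36.9%. In WT thyroids 24 of 33 members passed low-iodine against normal diet, against 75.9% of all genes: 10 were higher, against 39.4%, and 14 lower, against 36.5%. The diets' arrays did not overlap for 20 members in KO2 thyroids, against 64.9% of all genes, and for 24 in WT thyroids, against 66.8%. With diet and array set confounded, nothing is read from these counts. Acat2 differed by 6.47 in KO2 and 6.38 in WT thyroids, Acly by 3.57 and 2.63, Insig1 by 3.02 and 3.05, and Idi1 by 2.24 and 3.15. Lower on the low-iodine arrays were Fasn (−3.67 in KO2 and −4.27 in WT), Srebf1 (−2.89 and −3.64), Scap (−2.70 and −3.22) and Ebp (−2.47 and −2.88). Probes of 1 gene often disagreed here: of 17 members with several probes, 7 had probes of opposite sign in KO2 thyroids and 6 in WT thyroids. In WT thyroids the chosen Acaca probe stood at −3.12 and its other 3 at 2.47, 1.27 and 2.66, and the chosen Stard4 probe stood at −1.57 and the others at 3.03 and 2.80. No direction is drawn for the members from the diet comparison.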

How the data were processed

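Thyroid RNA of 18 mice was measured on arrays, whose titles give the groups. RNA was extracted with an Ambion kit, and 50 ng was amplified with a NuGEN kit before 5 ug of product was labelled with Cy3, per the labels' protocols. The deposited values are processed signal intensities on a linear scale, made with Agilent Feature Extraction 12 per the submitters' processing notes, with release 12.0.3.1 for the low-iodine arrays and 12.0.0.7 for the normal-diet arrays per the file headers. The series' value table as deposited holds the same intensities.

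For each array, log2 intensities were set against the 75th percentile after removal of control and outlier spots, and spots of a probe were averaged. Of 41174 probes, 28223 (68.5%) were matched by accession to 1 gene of the GRCm38.p6 table and 12951 to none. A probe was kept if it stood well above background on 4 or more of the 18 arrays, and each of 17928 genes was represented by its brightest probe. No spot was saturated. One limma model (limma 3.58.1, R 4.3.3) of 4 group means over all arrays gave each difference, its SE and a p-value adjusted with Benjamini-Hochberg over all genes, with 0.05 as the threshold. Medians and counts over a list carry no test. The 33 members and all lists were chosen with earlier results of these data known. Values on every array are given for members that passed a genotype comparison or were among the 6 smallest p, and every other list with a call names at most 4 of the genes reported here, those of smallest p. Soat1, Npc1, Msmo1, Lbr, Lipa, Abcg1, Mylip, Mbtps1 and Mbtps2, probes other than the brightest, and Scd1 on the low-iodine diet were named after their values were seen. Normexp correction used the median signal, with an offset of 50, since the mean signal column was not in the files used here. Some genes of the lists are not reported here. The fits were tested on simulated data. Replicate numbers were not used to pair arrays: arrays of the 2 genotypes with the same number correlated, as deviations from their group means, at 0.035 to 0.13 on low iodine and −0.038 to 0.32 on the normal diet.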

Additional observations from a re-analysis of the deposited data

Results flagged for a closer look

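Within a group, 6 values of members stood apart from the others by Dixon's test, of 132 pairs of member and group examined. Chance alone would set about 1 in 20 apart (6.6 here). Of these, 3 fall on WT replicate 1 of the normal diet: Idi1 at 0.233 (the others 0.809 to 1.04), Sqle at 0.108 (0.419 to 0.526) and Stard4 at −1.74 (−1 to −0.906). On the low-iodine diet, Idi1 was at 2.59 in KO2 replicate 2 (the others 3.17 to 3.25), and Scd1 was at 4.24 in KO2 replicate 3 (2.77 to 2.91). Acat2 stood at −0.741 in KO2 replicate 4 of the normal diet (−1.41 to −1.25), the array with the highest fatty acid and adipocyte means of its group. The call of Idi1 on low iodine was lost without KO2 replicate 2 (adjusted p = 0.0953), and Scd1 without KO2 replicate 3 differed by −1.95 (adjusted p = 0.0684).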

How the results depend on the processing

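Each genotype result was recomputed under 30 alternatives and the interaction under 29. On low iodine the count of 11 members called became 6 with median scaling and ran from 8 to 13 without single arrays. None of the 11 changed direction under any alternative. Fdps, Dhcr7 and Srebf1 kept their calls under all 30, Mvk, Sqle, Sc5d, Stard4 and Scap lost theirs under 1, Idi1 and Tm7sf2 under 7 and Nsdhl under 12. Without single arrays, 4 members gained a call on low iodine: Fads1 (3 arrays), Insig1 (2), Insig2 (2) and Scd1 (1). The sterol median on low iodine was −0.318 with median scaling, −0.62 with quantile normalization, −0.729 without scaling and −0.659 with probe means, and −0.552 to −0.403 without single arrays; on the normal diet it was −0.265 without scaling and −0.156 to −0.0566 without single arrays. The fatty acid median ran from −0.304 to −0.0945 on low iodine and from −0.63 to −0.307 on the normal diet without single arrays. The normal-diet count of 1 became 0 with median scaling, normexp, the replicate block and a fit of only the arrays compared, and ran from 0 to 5 without single arrays, with 5 without KO2 replicate 4. The interaction count of 0 became 1 with quantile normalization and with slide as a fixed block, and stayed at 0 without single arrays. With the replicate block, 13 members passed on low iodine, 0 on the normal diet and 0 in the interaction. On low iodine 2 of 4 KO2 arrays, and on the normal diet 2 of 5, correlated best with the WT array of their own number. So few pairs cannot decide whether the numbers pair the arrays.

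Scaling moved the median of all genes by over 0.1: it was −0.285 on low iodine and −0.106 on the normal diet without scaling, where 86.5% and 90.6% of all calls were lower, against 47.9% and 63.1% (with median scaling 73.1% on the normal diet). Over all genes, low iodine gave 2687 calls, against 1642 with median scaling and 1673 with only the arrays compared. The normal diet gave 249, against 160 with the replicate block, 3 with only the arrays compared and 675 without KO2 replicate 4. The interaction gave 219, against 708 with quantile normalization and 90 with median scaling.

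Between diets, 11 members, those named for that comparison and Cyp51, were recomputed in each genotype, and 10 differences changed sign. In the main fit Cyp51 differed between diets by −0.33 in KO2 and −0.14 in WT, neither called. In KO2 and WT, Cyp51 was 2.28 and 3.601 with quantile normalization, 1.795 and 2.826 with normexp, and 0.8994 and 1.573 with probe means, and with probe means Stard4 was 0.2334 and 1.419 and Acaca 0.9866 and 0.8202. With probe means the cause is that probes of these genes differ in sign. The 3 probes of Cyp51 differed in sign between diets in both genotypes. Whether another of them stood for Cyp51 with quantile normalization or normexp was not tested. Signal near background limits the dim probes, of which Stard4 on 1 KO2 array is the one case among the members.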
